A study of Mus musculus with 8 samples.

Results

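Complement component C3, the alternative pathway proteases factor B (Cfb) and factor D (Cfd), the C3a receptor (C3ar1) and the membrane regulator Cd55 were examined in the conjunctiva of mice under desiccating stress (DS). The genes were chosen by name, and all 5 were found among the 248 genes of the panel table, with 1 row each. The table held 4 DS vehicle mice, given PBS, and 4 DS tributyrin mice, all of them female wild-type C57BL/6J animals to which the labels give an age of 8 weeks. DS combined a dry, drafty cage with repeated scopolamine injections, which block tear secretion, and it lasted 5 days in both groups. Tributyrin, a triglyceride that releases butyrate in the gut, was given once daily by gavage as 100 µl of a 0.5 mM preparation. The unstressed group of the study was not analysed here, so the values compare treatments under DS and not DS with the resting tissue.

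The alternative pathway is a branch of complement that needs no antibody. Factor B binds an activated form of C3, factor D cuts the bound factor B, and the resulting enzyme cleaves more C3 into C3a and C3b, so that the reaction feeds itself. C3a signals through its receptor, which is found mainly on myeloid cells, and CD55 takes the C3-cleaving enzyme apart on the surface of host cells. C3 and factor B come largely from the liver but are also made locally by epithelium and macrophages in inflamed tissue, whereas factor D, also called adipsin, is a product of fat cells. The nCounter method counts barcoded probes hybridized to each RNA. Values are given as normalized counts, meaning probe counts that the authors scaled to reference genes in each mouse. Levels are compared between mice for the same gene and not between genes, since probes differ in efficiency.

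None of the 5 genes differed between DS tributyrin and DS vehicle mice beyond the spread between mice. The estimates for C3, Cfb, Cfd, C3ar1 and Cd55 were all above 0, with log2 differences of 0.06 to 0.33 and a median of 0.24, but all 5 intervals included 0. The median was 0.13 without tributyrin mouse 12, 0.06 in a fit that included the scaling factor and 0.02 without tributyrin mice 9 and 12, where only 3 of the 5 were above 0. Mice 9 and 12 were the highest of all for Cfb and C3ar1, so leaving them out could only lower the estimates of these genes. In limma, a linear model fitted to all 248 genes, 0 of the 5 passed an adjusted p of 0.05, as did 0 of all 248 genes (0%). The smallest limma adjusted p over all genes was 0.0516, just above that limit. At an unadjusted p under 0.05 the count was 0 of 5, where 31 of all genes (12.5%) were below that level. With voom on recovered counts 0 of the 5 passed after adjustment, while 7 of all genes did. The exact Mann-Whitney test also passed 0, which the design in effect set, since its smallest p with 4 against 4 mice came to an adjusted p of 0.394 here. The groups overlapped for all 5 genes, while they did not overlap for 18 of the 248 (7.26%). Values above 0 were common in the whole table, with 177 of 248 genes higher with tributyrin (71.4%) and a median log2 difference of 0.06. The samples are whole tissue, so a change in the number of cells of a type and a change in RNA per cell cannot be told apart.

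C3, the substrate on which all complement pathways converge, had normalized counts of 320, 314, 284 and 265 in vehicle mice 5, 6, 7 and 8. It had 290, 331, 380 and 405 in tributyrin mice 9, 10, 11 and 12. Mice 10, 11 and 12 lay above every vehicle mouse, and mouse 9 lay within the vehicle range. The mean was 295 ± 25.7 in the vehicle group and 352 ± 51.3 in the tributyrin group (SD over 4 mice each), a ratio of 1.18 (95% interval 0.98 to 1.43). The log2 difference was 0.24 (standard error 0.12, limma adjusted p = 0.454), and 38 of the other genes in the table had a smaller p. The exact permutation test of the mean difference over all 70 assignments of the mice gave a two-sided p = 0.114, where 0.0286 is the smallest that 4 against 4 allow. Each value rested on 186 to 419 recovered counts, and counting alone would give a log2 SD of 0.08, against 0.18 measured within the groups.

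**Figure D1:**
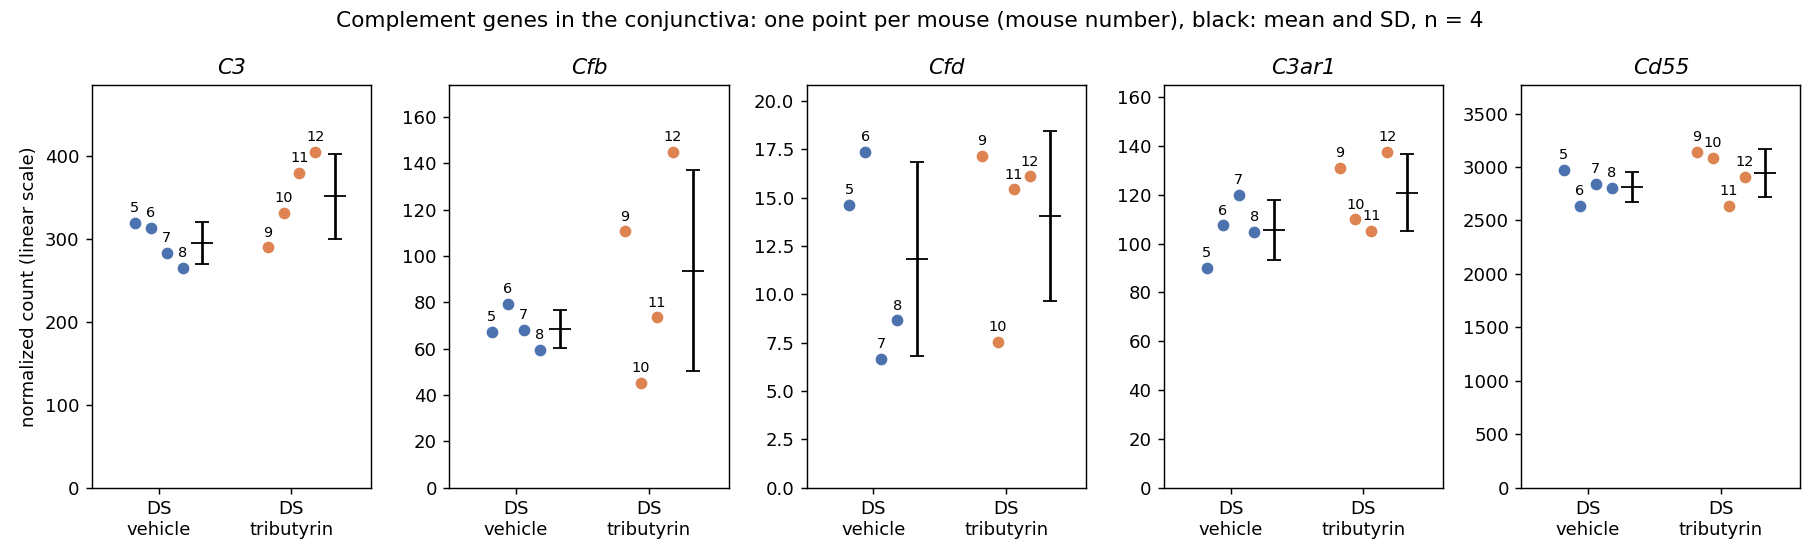
Normalized counts (linear y axis from 0) of C3, Cfb, Cfd, C3ar1 and Cd55 in each mouse, by group on the x axis; points are single mice with their numbers, and black bars give the mean and SD of 4 mice. The groups overlap for every gene, and the 4 tributyrin mice spread from 45.3 to 145 for Cfb.

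Cfb encodes the protease that becomes the catalytic part of the C3-cleaving enzyme. Its normalized counts were 67.3, 79.2, 68.1 and 59.5 in vehicle mice 5 to 8 and 111, 45.3, 73.5 and 145 in tributyrin mice 9 to 12. The vehicle mice lay close together, whereas the tributyrin group held both the lowest mouse of all (mouse 10) and the highest ones (mice 9 and 12). The log2 SD was 0.17 with vehicle and 0.73 with tributyrin (n = 4 each), and whether the spread differed was not tested. The mean was 68.5 ± 8.11 in the vehicle group and 93.6 ± 43.4 in the tributyrin group (SD over 4 mice each). The log2 difference of 0.33 had a wide interval, from -0.45 to 1.10 (limma adjusted p = 0.679; exact permutation test, two-sided, p = 0.4). Leaving out mouse 12 gave 0.07 and leaving out mouse 10 gave 0.63, so that single mice set the estimate, and quantile normalization gave 0.12.

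Mice 9 and 12 were also the most shallowly counted animals. Their recovered totals were 742068 and 923604 counts, against 1035041 to 1494519 in the others, and their scaling factors were the largest (1.56 and 1.24). Before scaling, the Cfb probe was counted 117 times in mouse 12, the highest of the 8 mice although that mouse had the second smallest total, and 71 times in mouse 9. The other 6 mice had 54 to 92 counts. Mice 9 and 12 were the highest of all for Cfb, so leaving them out could only lower its estimate. Without them the log2 difference of Cfb was -0.24 (95% interval -0.77 to 0.29), and it was 0.06 in a fit that included the scaling factor.

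Cfb and the classical pathway protease C2 lie next to each other on chromosome 17 in the GRCm38.p6 annotation, and they are related genes. C2, which was singled out here as the neighbour after its values had been seen, had normalized counts of 131, 253, 158 and 121 in vehicle mice 5 to 8. It had 122, 131, 134 and 189 in tributyrin mice 9 to 12. Tributyrin mouse 12 and vehicle mouse 6 were high for both genes and vehicle mouse 8 was low for both, whereas tributyrin mouse 9 was the second highest for Cfb and among the lowest for C2. The log2 difference of C2 was -0.16 (95% interval -0.74 to 0.41).

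Cfd, the gene of the protease that activates factor B, was measured near the bottom of the panel. Its normalized counts were 14.6, 17.4, 6.67 and 8.65 in vehicle mice 5 to 8 and 17.1, 7.55, 15.4 and 16.1 in tributyrin mice 9 to 12. Mice with low and with high values were found in both groups, and in every mouse Cfd was among the 12 lowest of the 248 genes. These values stand for 8 to 18 recovered counts. The 9 counts of vehicle mouse 7, for example, have an exact 95% Poisson interval of 4.12 to 17.1 counts, which covers counting error only. Counting alone would give a log2 SD of 0.42, against 0.60 measured. The log2 difference was 0.28 (95% interval -0.59 to 1.16, limma adjusted p = 0.722; exact permutation test, two-sided, p = 0.543). It was -0.03 without mice 9 and 12, the highest of the tributyrin group for Cfd, whose omission could only lower it. A fit that included the scaling factor gave 0.03, and quantile normalization gave 0.03. The 73 genes with a mean normalized count under 50, of which Cfd is one, had a median log2 difference of 0.20. Negative control probes were not analysed here, so the value of Cfd was not set against a background level.

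C3ar1, the receptor through which C3a acts on macrophages, dendritic cells and granulocytes, had normalized counts of 90.0, 107, 120 and 105 in vehicle mice 5 to 8. It had 131, 110, 105 and 137 in tributyrin mice 9 to 12. Mice 9 and 12 lay above all others, and mice 10 and 11 lay inside the vehicle range. Before scaling, C3ar1 had 84 counts in mouse 9, the fewest of the 8 mice. Mouse 12 had 111 counts, against 97 to 162 in the others, so these mice ranked highest only after scaling by the largest factors (1.56 and 1.24). The means were 106 ± 12.3 (SD, n = 4) and 121 ± 15.7 (SD, n = 4), a ratio of 1.14 (95% interval 0.94 to 1.38; limma adjusted p = 0.480; exact permutation test, two-sided, p = 0.171). Leaving out these highest mice, 9 and 12, could only lower the estimate. Without them the log2 difference of C3ar1 was 0.03 (95% interval -0.26 to 0.33) in place of 0.19. It was 0.13 in a fit that included the scaling factor and 0.13 with quantile normalization. The 84 to 162 recovered counts of C3ar1 give a counting SD of 0.14 on the log2 scale, close to the 0.18 measured within the groups.

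Cd55, also known as decay accelerating factor, varied least of the 5 genes between mice. Its normalized counts were 2969, 2634, 2840 and 2804 in vehicle mice 5 to 8 and 3140, 3087, 2638 and 2907 in tributyrin mice 9 to 12. The lowest mouse of each group lay at nearly the same value, and the whole range over 8 mice was 0.25 on the log2 scale. The ratio of tributyrin to vehicle was 1.05 (95% interval 0.93 to 1.17; limma adjusted p = 0.698; exact permutation test, two-sided, p = 0.371). This interval is the narrowest of the 5, and it covers a small rise as well as a small fall. With quantile normalization the log2 difference of Cd55 was 0.15 in place of 0.06, and its unadjusted interval ran from 0.01 to 0.29 (limma adjusted p = 0.391). In the annotation Cd55 lies beside Cd55b, a closely related mouse gene, and the table cannot show whether the probe captures both.

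Differences between genes within a mouse do not depend on the scaling of that mouse. The log2 value of C3 minus that of Cd55, a substrate set against its surface regulator, was -3.40 to -3.07 in the vehicle mice and -3.44 to -2.79 in the tributyrin mice. Cfb minus Cd55 was -5.56 to -5.06 with vehicle and -6.09 to -4.33 with tributyrin. Cfb minus C3 was -2.25 to -1.99 with vehicle and -2.87 to -1.39 with tributyrin. The groups overlapped in each case, and the tributyrin mice reached further in both directions. C3ar1 minus C3 differed by -0.05 between the group means, with ranges of -1.83 to -1.24 and -1.85 to -1.15. These differences were not tested.

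**Figure D2:**
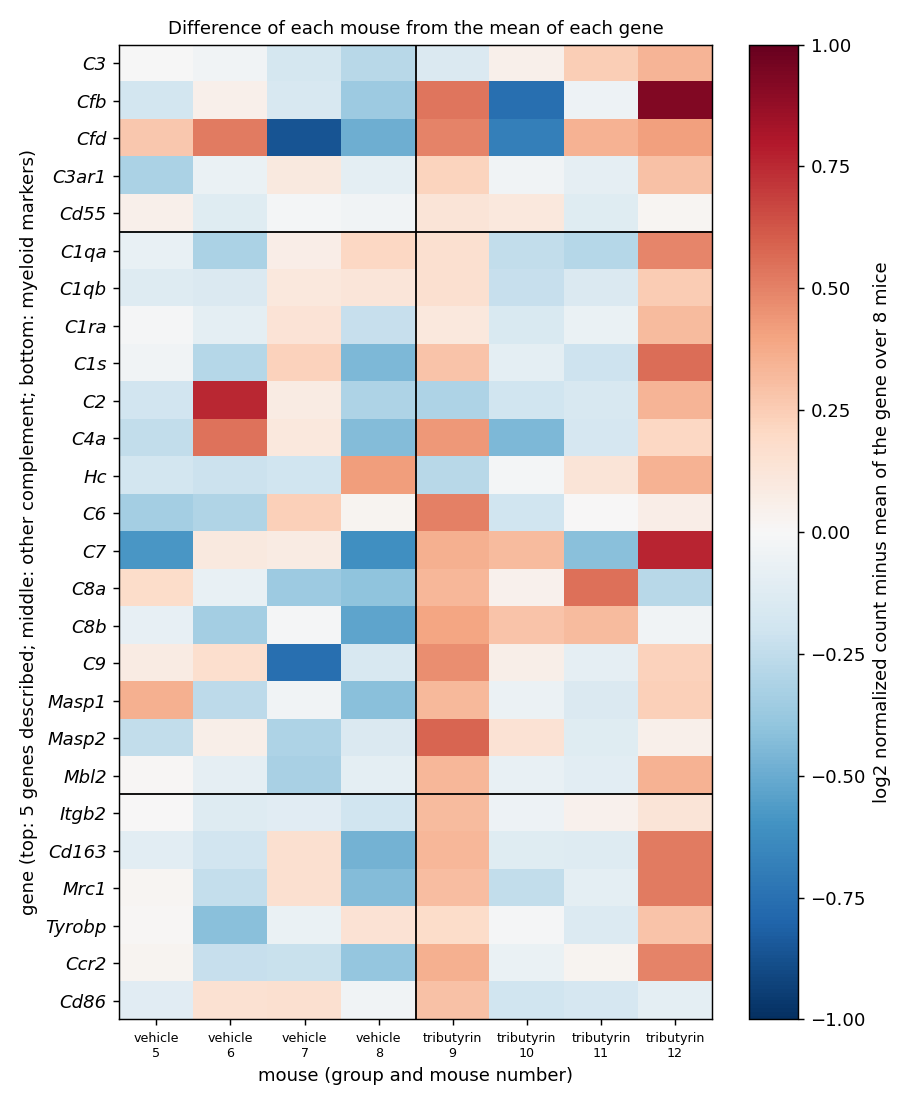
Each cell gives the log2 normalized count of a gene (rows) in a mouse (columns) minus the mean of that gene over 8 mice; red is above and blue below the mean. The rows are the 5 genes described, 15 other complement genes and 6 myeloid markers. Columns of tributyrin mice 9 and 12 are red for Cfb, C3ar1 and nearly all myeloid markers, whereas C3 is below its mean in mouse 9.

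As a measure of likeness, the values of each gene were centred on its mean and the root mean square (RMS) difference from every other gene was taken over the 8 mice. C3 was closest to Myc (RMS difference 0.11 on the log2 scale) and Ripk1 (0.12), and the nearest of its own pathway, Cd55, ranked 100th of 247. The difference from Cd55 (0.23) was larger than the RMS of C3 around its own mean (0.20), so this rank does not show likeness. Cfb was closest to Tgfb3 (0.20) and Ccl5 (0.22), with C3ar1 38th, Cfd 53rd, C3 73rd and Cd55 168th. Cfd was closest to Fasl (0.29) and C9 (0.36), both with means under 50, and Cfb ranked 11th and C3 45th. C3ar1 was closest to Il12b and Il1rn (0.12 each), with Cd55 48th and C3 145th. Its difference from Cd55 (0.18) was about the RMS of C3ar1 around its own mean (0.18). Cd55 was closest to Mapk8 and Il11 (0.07 each), with C3ar1 123rd. These are descriptions of 8 mice that share scaling factors, and for Cd55, whose own RMS around its mean was 0.09, closeness means little more than low variation.

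After scaling, myeloid markers were high in the same mice as Cfb and C3ar1. Mice 9 and 12 both lay above the other 6 for 2 of the 5 genes, Cfb and C3ar1, and for 62 of all 248 genes (25%). The same held for 5 of the 6 measured myeloid markers, which were Itgb2, Cd163, Mrc1, Tyrobp and Ccr2, with Cd86 the exception. Tyrobp, a signalling adaptor of myeloid cells, had 400 and 430 normalized counts in mice 9 and 12 and 265 to 390 in the others. Mrc1, the macrophage mannose receptor, had 259 and 298 against 155 to 233, and Ccr2, the receptor that draws monocytes into tissue, had 146 and 162 against 87.6 to 117. The summed level of the 6 markers was 792 to 946 in vehicle mice and 881 to 1201 in tributyrin mice, and none was at 0. Mice 9 and 12 had the largest scaling factors (1.56 and 1.24). Before scaling, Tyrobp was counted 257 and 347 times in them, against 244 to 456 times in the others. Mrc1 had 166 and 241 counts against 143 to 315, and Ccr2 had 94 and 131 against 81 to 144. For Tyrobp, Mrc1 and Ccr2 these mice thus stood out only after scaling. Of the 6 markers, 0 passed the adjusted limma test. An unadjusted p under 0.05 was found for 2 (Ccr2 and Itgb2, 33.3%), against 12.5% of all genes. The median log2 difference was 0.23, or 0.01 without mice 9 and 12. It was 0.18 in a fit that included the scaling factor and 0.11 with quantile normalization. As mice 9 and 12 were the highest for 5 of the 6, leaving them out could only lower the estimates of those markers. The part of these markers in the values of C3ar1 and Cfb was not tested. The myeloid list named 20 genes, of which 6 were in the table. None of the 11 listed markers of conjunctival epithelium or the 5 of fat cells, the known source of adipsin, was among its rows, so the labelled tissue was not checked against them.

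Other complement genes gave a similar picture. The table held 15 of 38 listed genes of the classical, lectin and terminal pathways, and 0 of them passed the adjusted limma test (smallest adjusted p = 0.199) or voom. At an unadjusted p under 0.05 there was 1 of 15 in limma, C8b (6.67%), against 12.5% of all genes. Their median log2 difference was 0.19, with 14 above 0 (93.3%). Of all genes 71.4% were above 0, as were 84.9% of the 73 with a mean under 50, where 8 of the 15 lay. The groups overlapped for all 15, while they did not overlap for 7.26% of all genes. Without mice 9 and 12 only 7 of the 15 were above 0 and the median was -0.0031. For 5 of the 15 these mice were the highest, so leaving them out could only lower the estimates of those genes. With quantile normalization 9 of 15 were above 0. C1s, the classical pathway protease that cuts C4 and C2, had 393 normalized counts on average with vehicle and 477 with tributyrin (log2 difference 0.27, 95% interval -0.21 to 0.75). C1qb and C1qa, chains of the C1q recognition molecule made by macrophages, differed by 0.02 and 0.06. The 6 listed genes at a mean of 100 or more had a median of 0.04.

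Higher estimates came from complement genes at low levels. The 6 terminal pathway genes, which build the membrane attack complex, all had means under 50 and a median log2 difference of 0.33, which was 0.19 with quantile normalization. All 73 genes with a mean under 50 had a median of 0.20, and 84.9% of them were higher with tributyrin. C8b, which encodes a chain of that complex, had 32.4, 27.1, 34.1 and 23.8 normalized counts in vehicle mice 5 to 8 and 45.2, 41.9, 42.6 and 33.4 in tributyrin mice 9 to 12. Only tributyrin mouse 12 fell within the vehicle range. Its log2 difference was 0.48 (95% interval 0.15 to 0.81, limma adjusted p = 0.199). Masp2, a lectin pathway protease, and Mbl2, a lectin that binds microbial sugars, differed by 0.32 and 0.25 (limma adjusted p = 0.454 and 0.469).

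**Figure D3:**
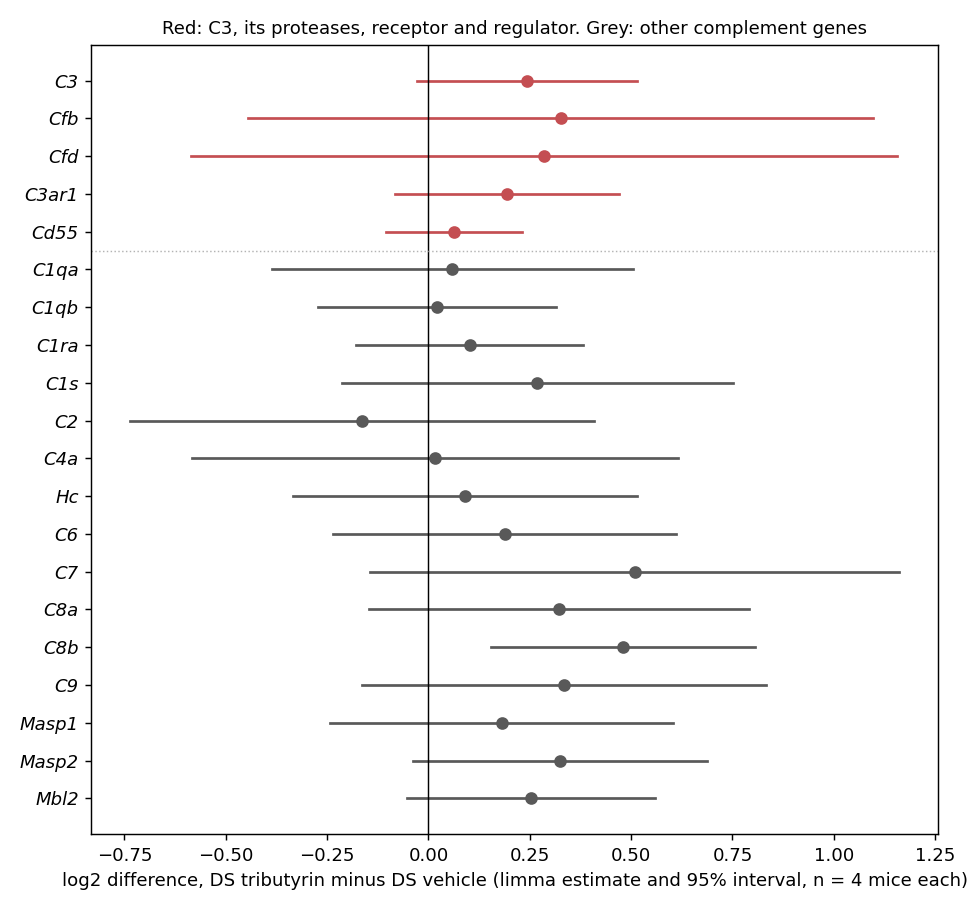
Log2 differences, DS tributyrin minus DS vehicle, on the x axis for 5 genes of C3 and the alternative pathway (red) and 15 other complement genes (grey), with limma estimates as points and 95% intervals as lines (n = 4 mice each). Only the interval of C8b, 0.15 to 0.81, lies wholly above 0, and it is not adjusted for the number of genes.

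Inflammatory cytokines that are known to raise C3 and factor B transcription were set beside them. Of the 6 listed, 0 passed the adjusted limma test or voom, 3 estimates were above 0 and 3 below, and the median log2 difference was 0.03 (-0.02 with quantile normalization). Tnf, a main inducer of both genes in epithelium, had 566, 522, 375 and 432 normalized counts in vehicle mice 5 to 8 and 418, 293, 353 and 415 in tributyrin mice 9 to 12. Tributyrin mice 10 and 11 lay below every vehicle mouse, mice 9 and 12 lay within the vehicle range, and the log2 difference was -0.35 (95% interval -0.73 to 0.02, limma adjusted p = 0.454). Il1a and Il1b, the interleukin-1 cytokines, differed by -0.09 and 0.10. Il17a, the cytokine of Th17 cells, had 17.8 to 22.8 normalized counts in the vehicle mice and 23.5 to 36.3 in the tributyrin mice. It was the 1 gene of 6 (16.7%) whose groups did not overlap, where 7.26% of all genes did not. It was also the 1 of 6 with an unadjusted limma p under 0.05, where 12.5% of all genes were below that level. Its log2 difference was 0.55 (limma adjusted p = 0.167), at 21 to 40 recovered counts per mouse. Of the 73 genes with a mean under 50, of which Il17a is one, 84.9% were higher with tributyrin. Ifng, which induces factor B, differed by 0.38 (95% interval -0.19 to 0.95), at 14 or more recovered counts per mouse.

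**Figure D4:**
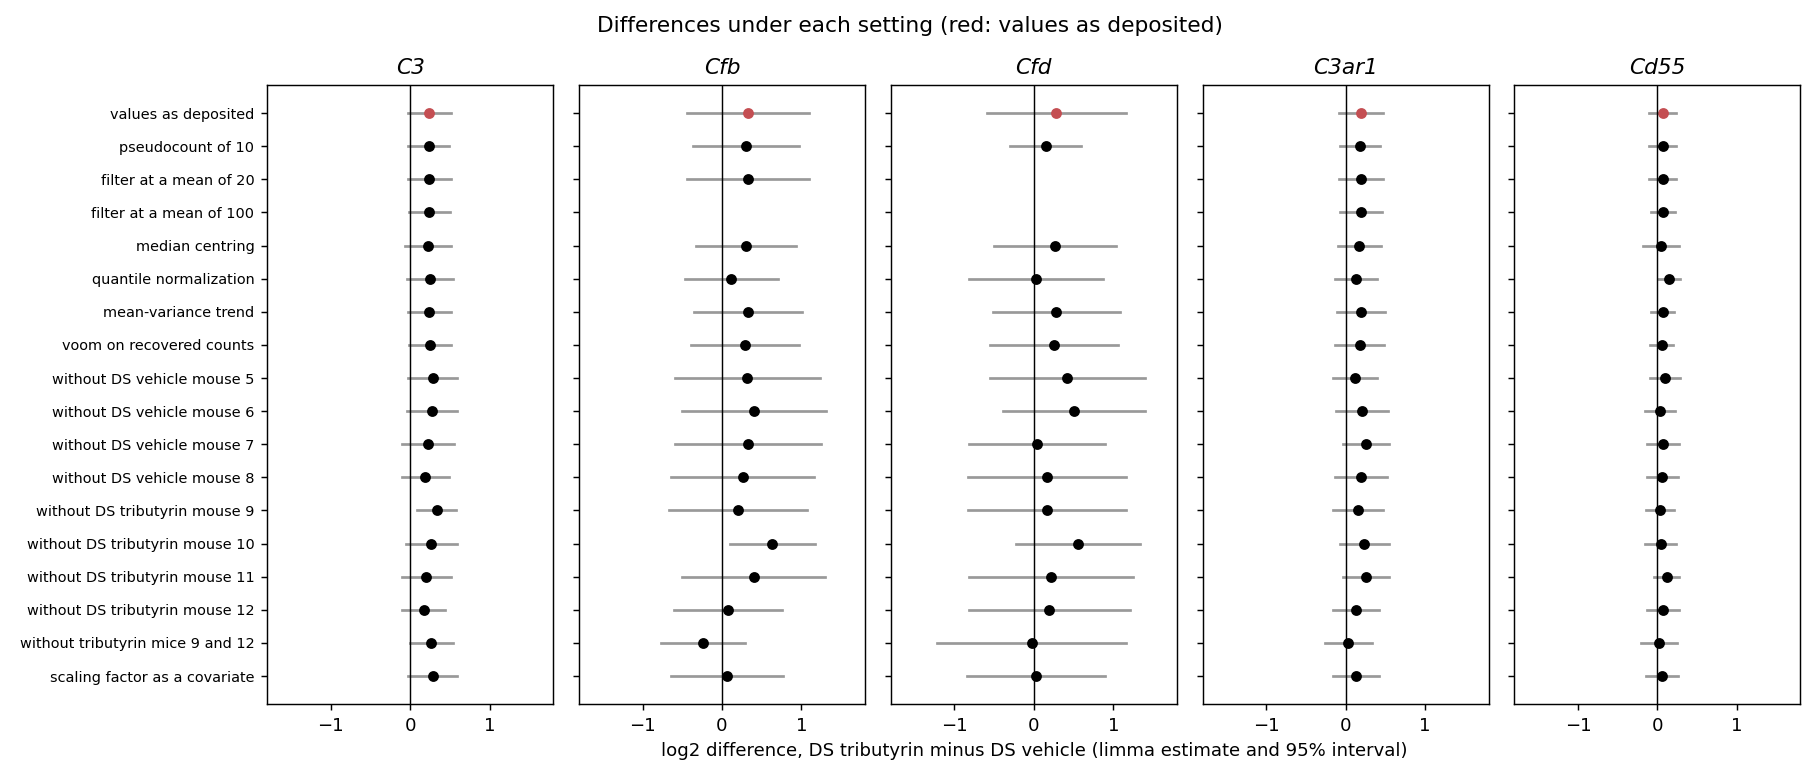
Log2 differences, DS tributyrin minus DS vehicle, on the x axis for each of the 5 genes under each setting (rows), with limma estimates as points and unadjusted 95% intervals as lines; red marks the values as deposited. C3 stays between 0.17 and 0.33, while Cfb ranges from -0.24 without mice 9 and 12 to 0.63 without mouse 10.

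The estimate for C3 was above 0 in every setting and moved between 0.17 and 0.33. Without mouse 9 it was 0.33, with an unadjusted interval of 0.09 to 0.57 that left out 0 (limma adjusted p = 0.345). It was 0.27 without mice 9 and 12, where the interval ran from -8.2e-04 to 0.54 (limma adjusted p = 0.650), and 0.29 in a fit that included the scaling factor (limma adjusted p = 0.543). Across all alternatives its adjusted p was 0.342 to 0.744.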

How the data were processed

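RNA from the conjunctiva of 8 mice was hybridized to the nCounter Mouse Inflammation probe set. The values the authors deposited are log2 counts of 248 genes, scaled for every animal to reference genes by their geometric mean. Any background subtraction is not stated in the labels or methods. Mice were treated as separate animals, since each has its own label, and no pair of columns was identical. Raised to the power of 2, all values of a mouse (100%) were whole multiples of a single step (tolerance 0.001). The step was taken as the scaling factor, and dividing by it gave totals of 742068 to 1494519 counts. A whole number added or subtracted before scaling would not show.

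The deposited log2 values were fitted with limma 3.58.1 (R 4.3.3), two-sided, with group as the only term and neither filter nor trend. P-values were adjusted by Benjamini-Hochberg over 248 genes. The fit was checked on simulated data with planted changes larger than every estimate of the 5 genes, so the check does not cover changes of their size. Exact tests used all 70 assignments. The alternatives changed the pseudocount, the filter on low means, the scaling, the variance model, the test (voom or Mann-Whitney), the covariates and the mice included. The study names Mann-Whitney tests for its pairwise comparisons, whereas it analysed its panel data with the ROSALIND platform. The members and lists were chosen with earlier results of these data known. Named genes are the 5 members, the 3 genes of each list with the highest level and the 3 with the smallest p, and the 2 genes most like each member. C2, and the complement genes and myeloid markers named beyond this rule, were chosen after their values were seen. Of the gene identifiers, 247 matched the GRCm38.p6 table, which served for names and neighbours only. Tables and plots were made in Python 3.11.15 with SciPy 1.17.1, NumPy 2.4.6 and matplotlib 3.10.9.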

Additional observations from a re-analysis of the deposited data

Results flagged for a closer look

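In 3 of 64 groups of 4 mice, taken over 32 named or listed genes, a single mouse stood apart from its group, and chance alone would give about 3.2. Cfd was low in tributyrin mouse 10 (log2 value 2.92, others 3.95 to 4.10), at 9 recovered counts. Il1b was low in the same mouse (5.99, others 6.58 to 6.64). Hc, which encodes complement component C5, was high in vehicle mouse 8 (5.51, others 4.87 to 4.91).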

How the results depend on the processing

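For the 5 genes, 70 log2 differences were computed under alternatives that could move them, of which 68 kept their direction, and 0 came to pass an adjusted p of 0.05. A further 17, from the filters, the mean-variance trend and the exact Mann-Whitney test, keep the log2 difference by construction, and the Mann-Whitney test could not pass here. The 2 that changed sign did so without tributyrin mice 9 and 12, at -0.24 for Cfb and -0.027 for Cfd, and the cause was not tested. Mice 9 and 12 were the highest of the tributyrin group for both genes, so leaving them out could only lower these estimates. Leaving out each mouse gave 0.17 to 0.33 for C3, 0.072 to 0.63 for Cfb, 0.043 to 0.56 for Cfd, 0.12 to 0.26 for C3ar1 and 0.032 to 0.12 for Cd55. In limma the number of all genes past an adjusted p of 0.05 was 0 as deposited. It was 6 after adding a pseudocount of 10, after median centring or when genes with a mean below 20 were left out, and 7 when those below 100 were left out, with a mean-variance trend or in voom. Omitting vehicle mouse 8 gave 6, omitting tributyrin mouse 11 gave 4, omitting vehicle mouse 5 gave 1, and omitting any other gave 0. None of these genes was among the 5 genes, the other complement genes, the cytokines or the myeloid markers listed. Cfd, under both filters, and Cfb, under the filter at 100, could not be tested. No paired analysis was possible because no replicate number occurs in both groups. Depth limits Cfd most, with 8 to 18 counts per mouse.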
